A study of Homo sapiens with 6 samples.

Results

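The cytosolic ribosome is built from ribosomal RNA and a fixed set of proteins, most in a single copy. Those of the large (60S) subunit are encoded by RPL and RPLP genes, and those of the small (40S) subunit by RPS genes and RPSA. Their mRNAs are among the most abundant of any dividing cell, and most begin with a C followed by an unbroken run of C and T, the terminal oligopyrimidine (TOP) motif, through which mTOR and LARP1 set how strongly they are translated. A few of the proteins have paralogs, second genes for a related protein, and the family has left many processed pseudogenes in the genome.

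The members were the genes of the deposited table whose symbol is RPL, RPS, RPLP or RPSP followed by a number, with an optional A, X or L, plus RPSA. They numbered 85 of 27381 genes. Of these, 77 were canonical (46 of the large subunit and 31 of the small) and 8 were paralogs, with an L after the number in the symbol. FAU, which makes a 40S protein as a fusion with a ubiquitin-like domain, has another name and was not a member.

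The RNA came from DU145 cells, a human metastatic castration-resistant prostate carcinoma line. The series held 6 libraries, 2 from control cells given a scrambled sgRNA (Scr), 2 labelled CD24 KO and 2 labelled RCC2 KO, all made with CRISPR/Cas9 from a plasmid that also carries GFP, sorted on GFP and expanded from single cells, so a knockout stands for the clones chosen. The authors deposited 1 column per condition in FPKM, fragments per kilobase of transcript and per 1000000 mapped fragments. With no value for each library, no difference below has an SD, a test or a replicate check, and the depth behind each value is unknown.

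The targeted genes did not follow the labels. CD24 was listed at 93.2 FPKM in Scr, 309 in CD24 KO and 214 in RCC2 KO, and RCC2 at 37.8, 14.2 and 41.8 FPKM, so each column is named below only by its label. The 6 epithelial markers summed to 898 to 1292 FPKM in the 3 columns, KLK3 and KLK2, of luminal prostate cells, were listed at 0, and the leukocyte, endothelial and fibroblast markers each summed to 0.77 FPKM or less. RNR2, the mitochondrial large ribosomal RNA, was listed at 26884 FPKM in Scr and 22704 in RCC2 KO but at 0 in CD24 KO, and its part in the differences below was not tested.

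The transcription starts of some members named below are shown first, because the TOP run is the feature that marks the family. Each line gives 15 bases before and 15 bases from the annotated start (RefSeq, GRCh38.p14), 5′ to 3′ on the strand of the gene, with the run that begins at the start in capitals.
RPS25 (chr11:119018329-119018358, minus strand): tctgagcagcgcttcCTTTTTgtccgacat
RPL11 (chr1:23691791-23691820, plus strand): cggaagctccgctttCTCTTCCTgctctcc
RPS24 (chr10:78033848-78033877, plus strand): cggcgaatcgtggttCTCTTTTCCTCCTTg
RPS18 (chr6:33272060-33272089, plus strand): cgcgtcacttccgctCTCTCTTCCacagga
RPL21 (chr13:27251543-27251572, plus strand): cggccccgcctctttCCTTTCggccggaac
RPS3A (chr4:151099613-151099642, plus strand): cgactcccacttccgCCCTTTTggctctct
RPL12 (chr9:127451392-127451421, minus strand): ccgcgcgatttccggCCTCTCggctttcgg
RPL41 (chr12:56116618-56116647, plus strand): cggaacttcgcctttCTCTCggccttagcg
The first 3 belong to highly expressed members and the next 2 to members listed near 0. The 8 are a selection, all with the run. Other members named below have no run of at least 5 at an annotated start, among them RPS29, RPS28, RPS15, RPL17 and RPL3. In RPL11, which has 2 annotated starts, the one with the run is shown.

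Paralogs are set beside the genes they are named for, in the same form.
RPL22 (chr1:6199581-6199610, minus strand): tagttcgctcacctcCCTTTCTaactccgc
RPL22L1 (chr3:170870181-170870210, minus strand): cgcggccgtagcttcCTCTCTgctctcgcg
RPL36A (chrX:101390996-101391025, plus strand): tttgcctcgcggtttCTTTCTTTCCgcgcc
RPL36AL (chr14:49620612-49620641, minus strand): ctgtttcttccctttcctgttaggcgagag
RPL26 (chr17:8383179-8383208, minus strand): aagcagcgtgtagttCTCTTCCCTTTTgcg
RPL26L1 (chr5:172958714-172958743, plus strand): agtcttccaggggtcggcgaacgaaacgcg
RPS27 (chr1:153990747-153990776, plus strand): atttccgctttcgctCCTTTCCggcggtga
RPS27L (chr15:63157463-63157492, minus strand): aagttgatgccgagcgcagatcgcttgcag
Lines without capitals have no run of at least 5 at that start.

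The start table held 68 of the 85 members. A run of C and T of at least 5 bases, beginning with C at the start, was present at an annotated start of 46 of 62 canonical members (74.2%), against 1404 of 27305 genes of the table (5.14%). The share was 28 of 38 for the large subunit and 18 of 24 for the small, and the median run was 8 bases. Of 6 paralogs with an entry only RPL22L1 had one. The letters TTCCGG, the core of the site bound by ETS-family factors, were present on either strand within 250 bases before to 50 bases after a start in 35 of 62 canonical members (56.5%) and in 20.1% of all genes, and in 6 canonical members a match overlapped the run.

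Ribosomal protein genes took a large and nearly equal summed level in all 3 columns. The 85 members summed to 37426 FPKM in Scr, 37345 in CD24 KO and 37937 in RCC2 KO, so the CD24 KO sum was 0.216% lower than Scr and the RCC2 KO sum 1.37% higher. As a share of the column total these were 8.29%, 9.61% and 8.49%. With RNR2 taken out of the totals the shares were 8.82%, 9.61% and 8.94%. In bulk RNA, fewer cells of a type and less RNA per cell cannot be told apart, and FPKM gives a share of the fragments and no amount per cell. Members made up 27 of the 100 highest genes in Scr, 32 in CD24 KO and 27 in RCC2 KO. Large subunit genes held 60.8%, 58.5% and 61.0% of the summed level.

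**Figure D1:**
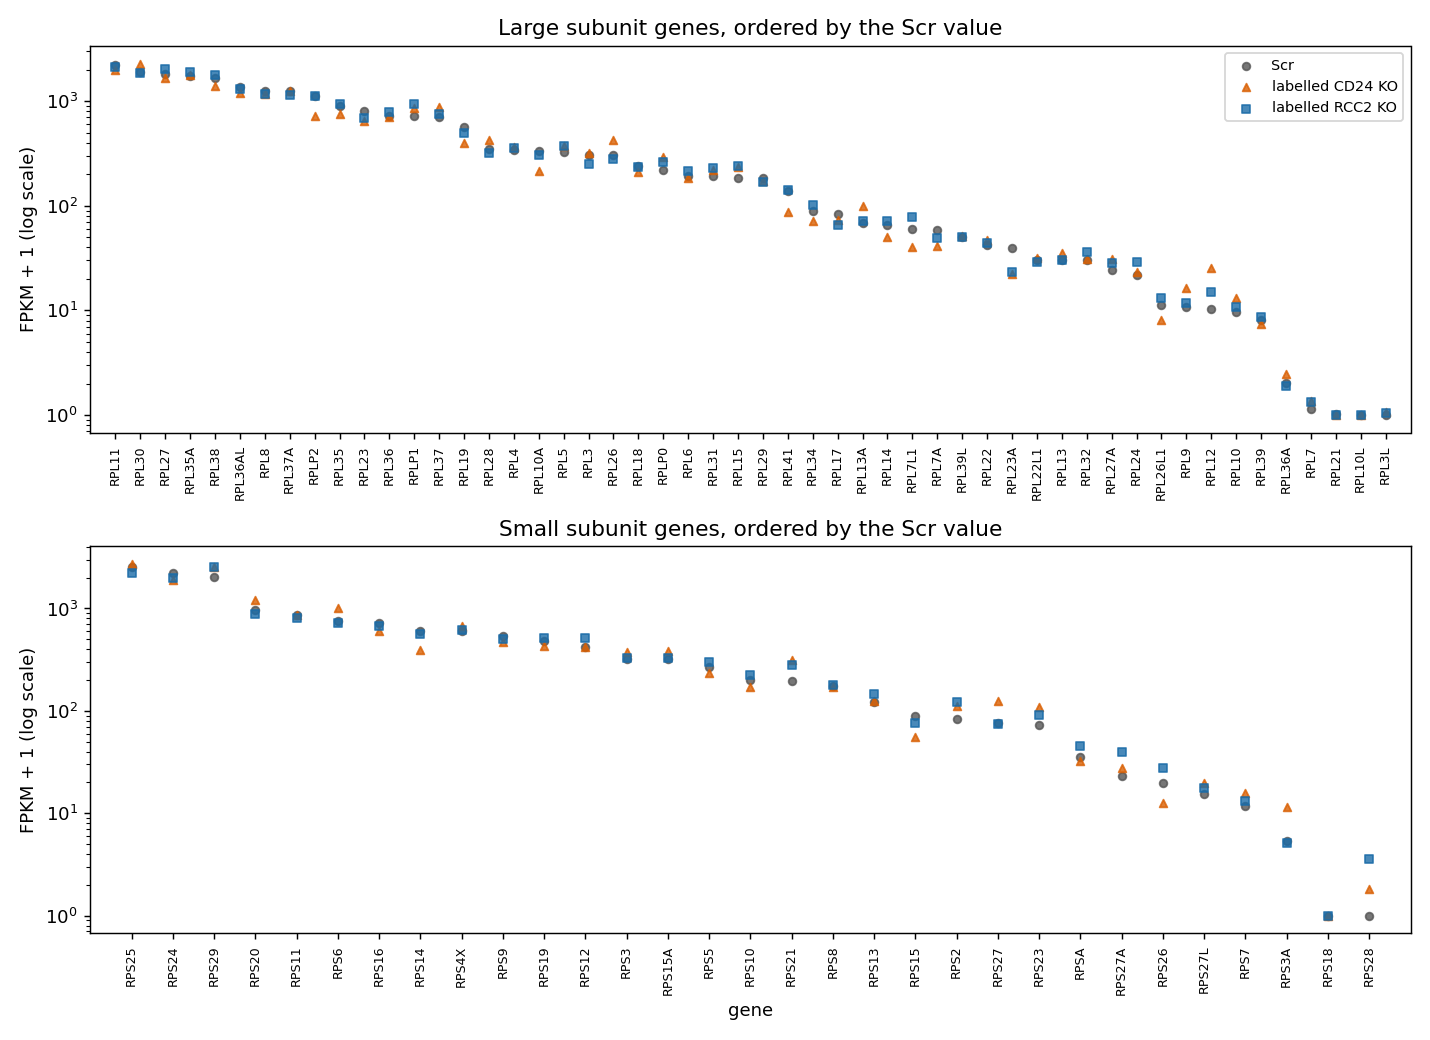
FPKM + 1 on a log scale for the members described here in the Scr (circles), CD24 KO (triangles) and RCC2 KO (squares) columns, large subunit above and small subunit below, ordered by the Scr value; a gene listed at 0 sits at 1. Levels run from 0 to 2531 FPKM in Scr, and the 3 points of most genes lie close together.

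Most of the proteins are present in equal numbers in the ribosome, but the listed mRNA levels of the members spanned more than 3 orders of magnitude. The 10 highest members held 49.9% of the summed Scr level. RPS25, a small subunit protein used by some viral and cellular internal ribosome entry sites, was highest in Scr with 2531 FPKM, and had 2715 in CD24 KO and 2206 in RCC2 KO. RPL11, which with RPL5 and 5S rRNA can bind MDM2, had 2212, 1972 and 2124 FPKM in the same order. RPS24, a gene mutated in Diamond-Blackfan anaemia, had 2197, 1890 and 1966 FPKM. These 3 were high in every column, and kept this order. RPS29, a small zinc-binding protein of the 40S head, had 2014, 2532 and 2561 FPKM, and RPL30 had 1914, 2286 and 1860. RPL5 itself, the partner of RPL11, was lower at 324, 375 and 371 FPKM.

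At the other end, RPS18 was listed at 0 in all 3 columns, although its protein sits in the head of every 40S subunit. RPS28 was listed at 0 in Scr, 0.817 FPKM in CD24 KO and 2.54 in RCC2 KO. RPL21 had 0.022, 0.0092 and 0 FPKM and RPL7 had 0.147, 0.376 and 0.333. RPL36A had 1.03, 1.48 and 0.880 FPKM. These genes are essential in dividing cells, so the values are listings of the table and are not read as a lack of expression. RPL10L was also listed at 0 throughout and RPL3L in Scr, and both are known mainly from testis or striated muscle.

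Members whose coding sequence recurs elsewhere in the genome had lower listed levels. Each coding sequence was read in windows of 50 bases from GENCODE 29, and a window was counted as repeated if the same letters stood in a transcript of another gene that does not overlap it. The 12 canonical members with under 5% of windows repeated had a median of 1252 FPKM in Scr and a range from 196 to 2212. The 28 members with 5 to 50% had a median of 342 FPKM, and the 37 with 50% or more a median of 41.0 FPKM, 26 of them under 100 FPKM. Across the 77 canonical members the Spearman correlation of the repeated share with FPKM was -0.709 in Scr, -0.708 in CD24 KO and -0.715 in RCC2 KO. The genes share libraries and counting, and whether the repeats set the levels was not tested. RPL21 and RPS28 had 100% of windows repeated and RPL7 99.7%. RPS25 and RPS29 stood apart, with 66.6% and 58.0% of windows repeated and 2531 and 2014 FPKM in Scr, and RPS18, at 0, had 53.6%.

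**Figure D2:**
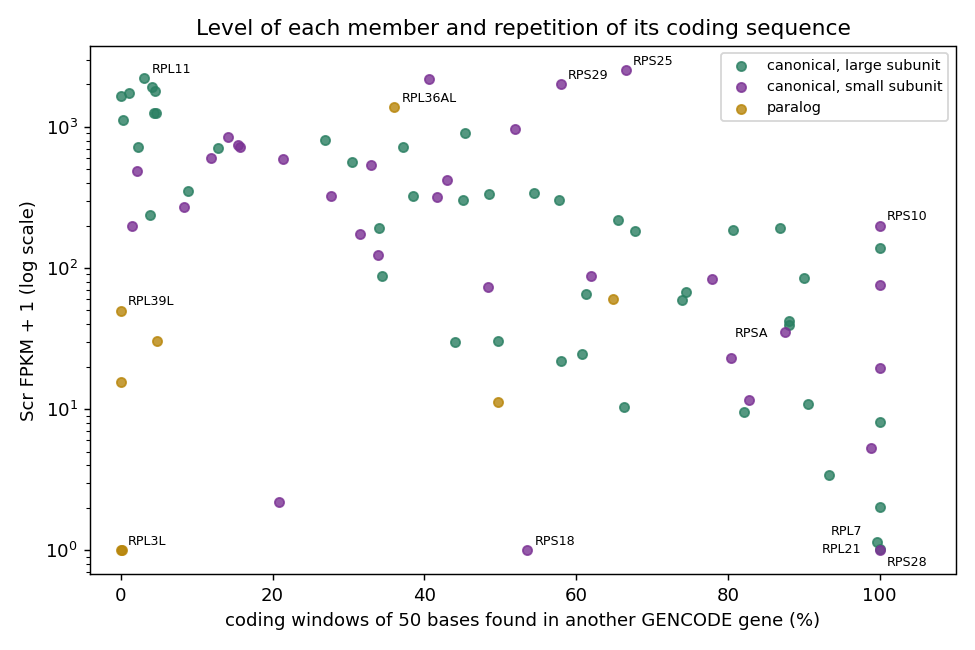
Share of coding windows of 50 bases repeated in another gene (%, horizontal) against Scr FPKM + 1 (log scale, vertical) for all 85 members, coloured by subunit and paralog. Canonical members with under 5% of windows repeated all lie at 196 FPKM or above, and most under 100 FPKM have 50% or more.

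The laminin-binding 40S protein RPSA had 34.3 FPKM in Scr, 31.4 in CD24 KO and 44.1 in RCC2 KO. Its pseudogene RPSAP58 was listed far higher, at 360, 300 and 427 FPKM, a ratio of 10.5, 9.55 and 9.68. The pseudogene and the gene were in a near-constant ratio in all 3 columns, and how the authors' counting divided reads between them is not given in the sources used here.

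Of the 85 members, 80 reached 1 FPKM in at least 1 column and were compared on the log2(FPKM + 1) scale, on which the change of low genes is understated. RPL10L, RPL3L, RPS18, RPL21 and RPL7 did not. The same filter kept 12822 genes in all. A difference of at least 1.5-fold on this scale was counted as higher or lower.

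The first comparison asked what differs in DU145 cells carrying the CD24 KO label compared with Scr. Canonical ribosomal protein genes showed little common displacement. Their median log2 difference was 0.042, with 41 of 74 higher and 33 lower, and the median of all genes was -0.034. At least 1.5-fold higher were 6 and lower 7, together 17.6% of the 74. Of all genes 9.55% were higher and 11.6% lower, together 21.1%. A difference within 0.32 (log2) of Scr was found for 45 of 74, and for 6814 of all 12822 genes. The median was 0.035 for the large subunit (44 genes) and 0.065 for the small (30 genes). It differed with the share of coding windows repeated. The median was 0.22 for 34 members with 50% or more, 0.015 for 28 with 5 to 50% and -0.10 for 12 with under 5%. In the same order, 5, 0 and 1 members were at least 1.5-fold higher and 4, 2 and 1 lower.

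This balance depended on the scaling of the columns. The CD24 KO column has a smaller total, and scaling each column to the same sum moved the median of all genes to 0.16 and that of the canonical members to 0.26. Under it 14 of 74 members were at least 1.5-fold higher and 1 lower, where 19.6% of all genes were higher and 7.22% lower, so the share of members higher was near the background. Quantile normalization left all genes at 0.0034 and put the members at 0.22, with 13 of 74 higher and 1 lower, where 10.3% of all genes were higher and 10.3% lower. On the deposited scale the 47 canonical members with a mean of at least 100 FPKM had a median of 0.0020, while 656 other genes as highly expressed had -0.29. Relative to these other abundant genes, which include RNR2 and the pseudogene RPSAP58, the members were therefore higher in the CD24 KO column. No replicate bears on this difference.

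The individual members with the highest differences had low levels. RPL12, a protein at the base of the ribosomal stalk, had 9.38 FPKM in Scr, 24.5 in CD24 KO and 13.9 in RCC2 KO, a log2 difference of 1.29 in CD24 KO. RPS3A, a 40S protein that contacts initiation factors, had 4.32, 10.5 and 4.10 FPKM, a difference of 1.12. Both have most of their coding windows repeated (66.4% and 98.9%). RPS28 came next at 0.86, with no fold because it was listed at 0 in Scr.

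On the lower side, RPL23A, which lies at the exit of the peptide tunnel, had 38.7, 21.3 and 22.5 FPKM and a log2 difference of -0.83 in CD24 KO. RPS15, a protein of the 40S head close to the decoding site, had 87.4, 54.6 and 74.7 FPKM, a difference of -0.67. RPL41, the shortest ribosomal protein, had 138, 86.4 and 140 FPKM, also -0.67. For RPS15 and RPL41 it was the CD24 KO column that was low, and for RPL23A Scr was high against both other columns. These genes too have most of their coding windows repeated (RPL23A 88.1%, RPS15 61.9% and RPL41 100%). RPL23A also shares its locus with TLCD1 and small RNAs.

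**Figure D3:**
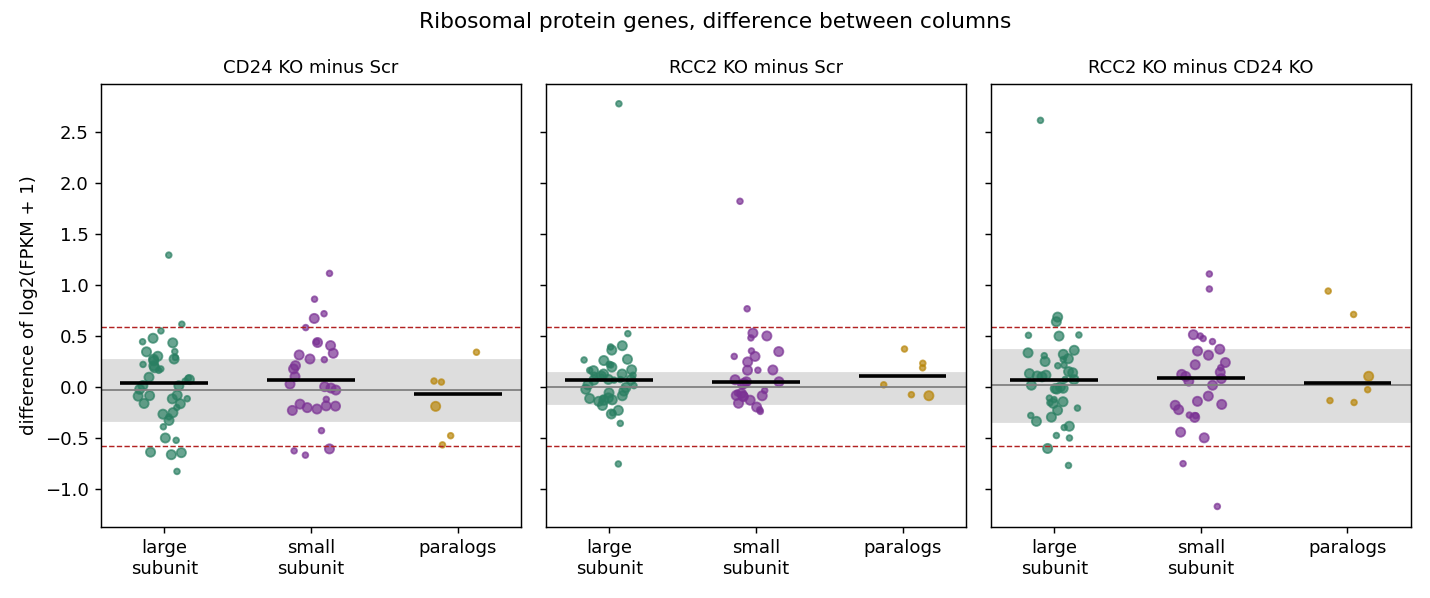
Difference of log2(FPKM + 1) for each compared member in the 3 comparisons, by large subunit, small subunit and paralog; large dots have a mean of at least 100 FPKM, black bars are medians, the grey band and line are the middle 50% and median of all 12822 genes, and dashed lines mark 1.5-fold. Member medians lie between -0.072 and 0.104, and the extreme points are small dots.

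The stalk recruits the GTPase elongation factors through RPLP0 and dimers of RPLP1 and RPLP2. RPLP0 had 218 FPKM in Scr, 294 in CD24 KO and 263 in RCC2 KO, and RPLP1 had 715, 865 and 947. RPLP2 had 1120, 715 and 1115 FPKM. The ratio of RPLP1 to RPLP2, which pair in equal numbers as proteins, was 0.639 in Scr, 1.21 in CD24 KO and 0.849 in RCC2 KO. RPLP2 has 0.338% of its windows repeated, so little of its coding sequence is shared, though SNORA52 lies in its locus. RPS6, the 40S substrate of S6 kinase, had 748, 1013 and 716 FPKM, highest in the CD24 KO column. Among the 12 members with under 5% of windows repeated the median in CD24 KO was -0.10, with 4 higher and 8 lower.

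The second comparison asked the same of the RCC2 KO label, where more members, and more of all genes, lay within 0.32 of Scr. Canonical members had a median log2 difference of 0.068, with 45 of 74 higher and 29 lower, beside -0.0036 for all genes. At least 1.5-fold higher were 3 and lower 1, together 5.41% of the 74. The background was 1.45% higher and 3.82% lower (5.27% together). Within 0.32 of Scr were 60 of 74 members and 10349 of all 12822 genes. The large subunit had a median of 0.072 and the small 0.050. The 47 members of at least 100 FPKM had a median of 0.035 and none past 1.5-fold, beside a median of 0.0016 for the 656 other genes at that level.

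Among the members higher in RCC2 KO, RPS28 had a difference of 1.82, with no fold because it was listed at 0 in Scr. RPS27A, a fusion that yields ubiquitin and a 40S protein, had 22.2, 26.9 and 38.4 FPKM, a difference of 0.77. FAU had 256, 166 and 259 FPKM, lowest in the CD24 KO column.

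Lower in RCC2 KO was RPL23A at -0.76. RPL17, another protein of the tunnel exit, had 83.3 FPKM in Scr, 72.3 in CD24 KO and 64.8 in RCC2 KO, a difference of -0.36, and shares its locus with C18orf32. RPL3, near the peptidyl transferase centre, had 303, 318 and 252 FPKM, a difference of -0.27. Neither RPL17 nor RPL3 reached 1.5-fold.

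The RCC2 KO column was also set against the CD24 KO column, which asks where the knockout labels differ from each other. The canonical median was 0.077, beside 0.017 for all genes, with 5 members at least 1.5-fold higher and 4 lower, where 13.8% and 14.1% of all genes were (27.9% together). Scaling to the same sum moved all genes to -0.17 and the members to -0.12, with 3 of 74 higher and 10 lower, where 9.11% of all genes were higher and 24.2% lower. RPS26 (1.11) and RPS28 (0.96) were among the highest. RPS26, which lines the mRNA exit channel, had 18.6 FPKM in Scr, 11.7 in CD24 KO and 26.4 in RCC2 KO. RPS3A (-1.17), RPL12 (-0.77) and RPS27 (-0.75) were lowest, all 3 higher in the CD24 KO column than in both others. RPL10, a late-joining 60S protein mutated in some T cell leukaemias, had 8.58, 12.0 and 9.73 FPKM and shares its locus with 3 other genes.

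The medians of large and small subunit genes lay close together in each comparison. The SD across canonical genes, a spread over genes and no replicate error, was 0.42 in the comparison of CD24 KO with Scr and 0.44 in that of RCC2 KO. Without members at shared loci (34 left), large minus small was -0.26 for CD24 KO. Against Scr, the medians of members with a TOP run (44 compared) were 0.021 for CD24 KO and 0.068 for RCC2 KO, and those of members without a run (16) were 0.064 and 0.14.

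The paralogs were listed at very unequal levels. RPL36AL, which encodes nearly the same protein as RPL36A, had 1376 FPKM in Scr, 1205 in CD24 KO and 1295 in RCC2 KO, against about 1 FPKM for RPL36A. All windows of RPL36A are repeated elsewhere and its locus is shared with 3 genes. RPL39L, known from testis and from some tumours, had 48.9, 50.6 and 49.7 FPKM, which was 6.95, 7.89 and 6.53 times RPL39 (7.04, 6.42 and 7.60 FPKM). RPL39L has 0% of windows repeated and was nearly level across the columns, while RPL39 has 100%.

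RPL22L1 had 29.3, 30.6 and 27.8 FPKM, below RPL22 (41.0, 46.4 and 43.0) in every column. RPS27L, a p53 target, had 14.6, 18.7 and 16.7 FPKM, and RPS27, a 40S zinc-finger protein, had 74.8, 124 and 72.9, so RPS27 was 5.14, 6.62 and 4.36 times its paralog. The ratio was widest in the CD24 KO column. RPL26L1 had 10.2, 7.07 and 12.2 FPKM, against 302, 421 and 276 for RPL26, a ratio of 29.5, 59.6 and 22.6. RPL26 was highest and RPL26L1 lowest in the same column, the one labelled CD24 KO. The share of windows repeated was 57.8% for RPL26, 49.7% for RPL26L1, 100% for RPS27 and 0% for RPS27L. RPL26L1 also shares its locus with LOC100268168. RPL7L1 had 58.9, 39.4 and 76.6 FPKM. RPL3L, of striated muscle, had 0, 0.071 and 0.046 FPKM.

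As a group the 6 compared paralogs had a median of -0.072 in the comparison of CD24 KO with Scr and 0.10 in that of RCC2 KO, and none passed 1.5-fold in either, where 21.1% and 5.27% of all genes did. Between the knockout labels 2 of 6 did, RPL7L1 at 0.94 and RPL26L1 at 0.71, both higher in RCC2 KO, a share of few genes near the 27.9% of all genes.

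**Figure D4:**
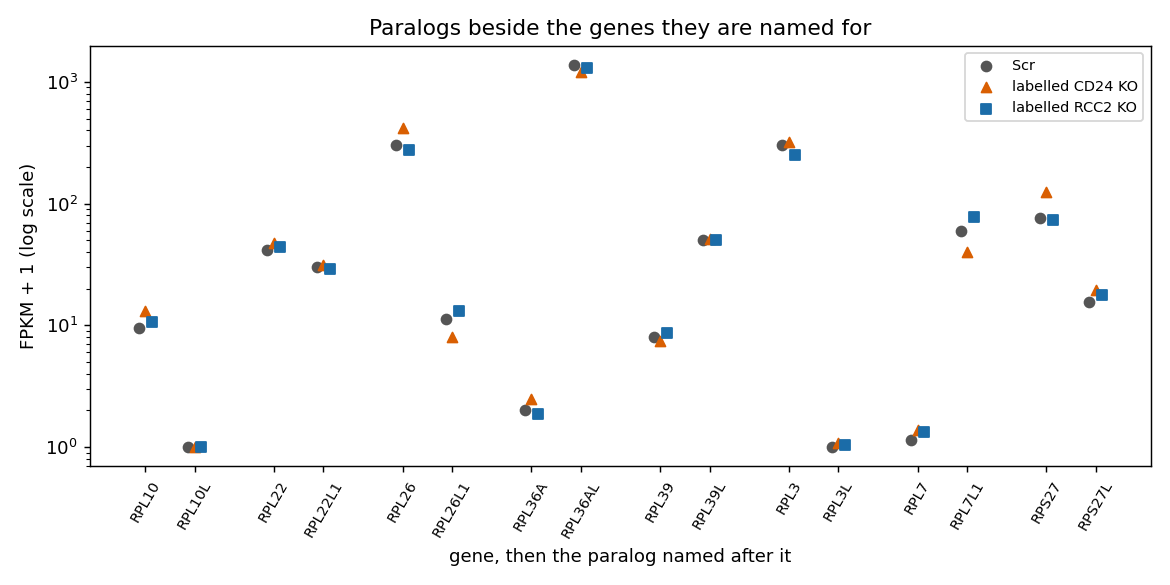
FPKM + 1 on a log scale for each paralog beside the gene it is named for, in the 3 columns. RPL36AL lies at 1205 to 1376 FPKM, above RPL36A near 1, RPL39L lies above RPL39, and RPL26 and RPS27 lie above their paralogs.

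The ribosome depends on other gene groups, and these were displaced differently. The mitochondrial ribosome, built in the matrix from nuclear MRPL and MRPS genes, was represented by 77 compared genes. In CD24 KO 67 were lower than Scr and 10 higher, with a median of -0.36. Of all 12822 genes, 6787 were lower and 6022 higher. At least 1.5-fold lower were 19 of 77, where 11.6% of all genes were. In RCC2 KO 26 were lower and 51 higher, with a median of 0.10, where 6490 of all genes were lower and 6317 higher. Other mRNAs with a TOP start, among them elongation and initiation factors (20 genes), had medians of -0.081 and -0.085. Of these, EEF1G, an elongation factor subunit, had 161, 237 and 183 FPKM, and HNRNPA1, an RNA-binding protein, had 22.4, 12.4 and 21.6.

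Chaperones that carry single ribosomal proteins to the assembling subunits were all lower in the CD24 KO column (8 of 8, median -0.39) and had a median of 0.12 in RCC2 KO. In CD24 KO 6787 of all 12822 genes, and 468 of the 656 other genes of at least 100 FPKM, were also lower. At least 1.5-fold lower were 3 of the 8, where 11.6% of all genes were. GRWD1, the chaperone of RPL3, had 24.6 FPKM in Scr, 9.13 in CD24 KO and 25.8 in RCC2 KO, a difference of -1.34 in CD24 KO. LTV1, a 40S assembly factor that escorts RPS3, had 52.3, 23.2 and 51.7 FPKM, a difference of -1.14. Their clients did not share these values, with RPL3 at 303, 318 and 252 FPKM and RPS3 at 323, 373 and 329.

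Of 10 genes of cap-dependent initiation and TOR signalling, 9 were lower in CD24 KO, with a median of -0.54, and the RCC2 KO median was 0.045. In CD24 KO 4 of the 10 were at least 1.5-fold lower, where 11.6% of all genes were. EIF4A1, the initiation helicase, had 282, 125 and 301 FPKM, a difference of -1.17 in CD24 KO. LARP1, which binds the TOP run, had 80.7, 39.8 and 89.9 FPKM, again lowest in the CD24 KO column. The mitochondrial, chaperone and initiation groups thus lay closer in CD24 KO to the 656 other abundant genes (median -0.29) than the canonical ribosomal protein genes did (0.042). The other TOP mRNAs, at -0.081, lay between the canonical genes and the 656. Levels differed, since the 656 were chosen at 100 FPKM or more and the mitochondrial genes had a median of 43.8 FPKM in Scr. The groups were chosen with earlier results known, share the Scr column and were not tested.

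**Figure D5:**
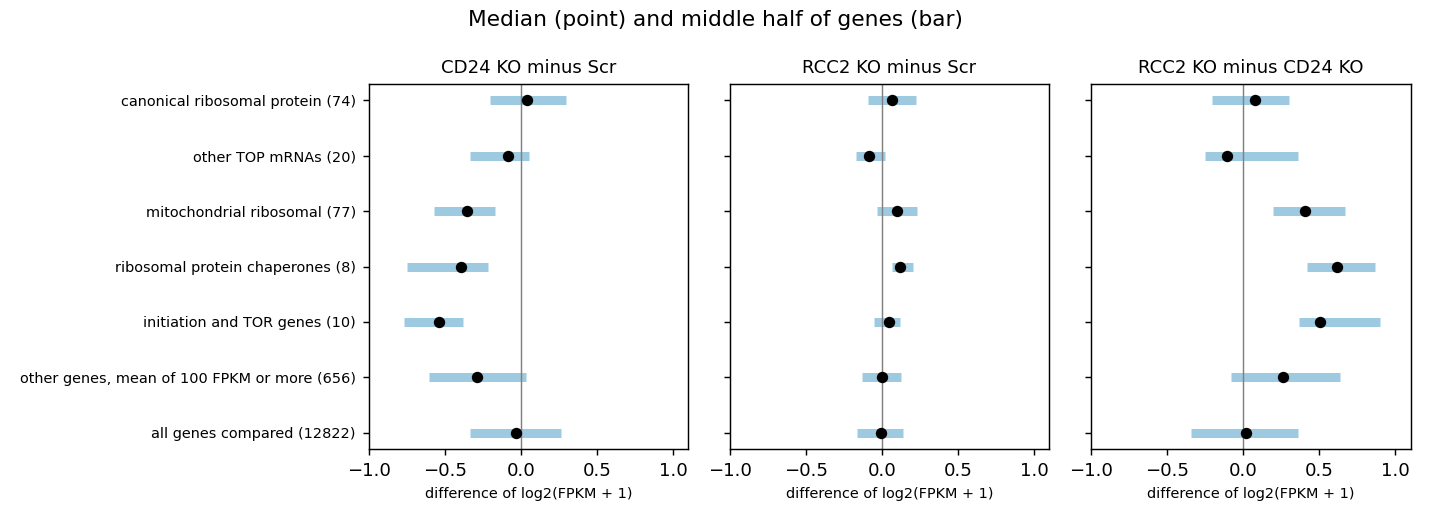
Median (point) and middle 50% of genes (bar) of the difference of log2(FPKM + 1) in the 3 comparisons, for canonical ribosomal protein genes and other gene groups with the number of genes in brackets. In CD24 KO minus Scr the canonical genes sit at 0.042 and the mitochondrial ribosomal, chaperone and initiation groups at -0.36 to -0.54. The other TOP mRNAs sit at -0.081.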

How the data were processed

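RNA was sequenced from 6 DU145 libraries, 2 per condition. Per the labels, libraries were made with an RNA kit from total RNA, and the study's methods name a stranded mRNA kit. The authors deposited FPKM values for 27381 genes in 3 columns, 1 per condition. The submitters' processing notes name HISAT, StringTie, Cufflinks and GATK, with no version or role. The RCC2 KO column has a name that fits 1 library or both. No build is named. Of 85 member loci 7 overlapped the GRCh38 position of the same symbol, so the table's coordinates are not GRCh38 and have the form of hg19. A total of 42 members share a table locus with another gene, 25 of them with small RNAs only, and how reads there were divided is not given in the sources used here.

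Genes with at least 1 FPKM in at least 1 column were compared as log2(FPKM + 1). No test was possible with 1 value per condition. Members and gene lists were chosen with earlier results of these data known. Genes named were all paralogs and the genes they are named for, the 5 highest and 5 lowest canonical members in Scr, the 3 highest and 3 lowest differences in each comparison, the stalk proteins, RPL5, RPL11, RPS6, RPSA, RPS27A, RPL41, RPL10, FAU and up to 4 genes of each list. RPS3, RPSAP58 and other members beside them were named for their values or annotation. Alternatives were pseudocounts of 0.1 and 5, other filters, median centring, quantile normalization, scaling to a sum of 1000000 or to non-members, a length and GC correction, log2 minimums of 0.32 (a lower fold) and a fold of 2, a wider member list, and shared loci left out. Restriction to members of at least 100 FPKM or with under 5% of windows repeated, and removal of RNR2, were alternatives chosen after seeing the data. Some genes that the rule names are not reported here. Start sites were those of RefSeq. Calculations were tested on simulated data. The tools were pandas 2.3.3 and NumPy 2.4.6 in Python 3.11.15, with SciPy 1.17.1 for correlations and matplotlib 3.10.9 for plots.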

Additional observations from a re-analysis of the deposited data

How the results depend on the processing

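Of 171 values recomputed under other settings, 113 stayed near the reported value, 48 moved and 10 turned sign. The cause was not tested, beyond fewer genes in the settings that restrict the members. No paired analysis was possible because the table has 1 column per condition, and leaving out each replicate could not be run for the same reason. The depth is unknown, so no value is weighted by it.

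In CD24 KO against Scr, canonical members at least 1.5-fold higher (6) and lower (7) became 14 and 1 when scaled to a sum of 1000000 or to non-members, 13 and 1 with quantile normalization, 17 and 12 at a log2 minimum of 0.32, 2 and 0 at 2-fold, 1 and 4 at 100 FPKM or more, and 1 and 1 with under 5% of windows repeated. Of all genes, 21.0% were higher and 25.8% lower at a log2 minimum of 0.32, and 2.67% and 3.03% at 2-fold. Scaled to non-members, 17.5% of all genes were higher and 5.86% lower. The length and GC correction left 3 members lower, where 9.99% of all genes were. Removal of shared loci left 4 members lower. The median (0.042) became 0.22 with quantile normalization, 0.26 and 0.27 with the scalings, -0.10 with under 5% of windows repeated and -0.0051 without shared loci. Large minus small subunit became -0.26 without shared loci, and paralogs minus canonical -0.0041 without a filter.

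In RCC2 KO against Scr, the counts (3 and 1) became 12 and 2 at a log2 minimum of 0.32, 0 and 0 at 100 FPKM or more and with under 5% of windows repeated, and 1 and 0 without shared loci, and 0 were lower at 2-fold. Of all genes, 7.14% were higher and 12.2% lower at a log2 minimum of 0.32, and 0.796% were lower at 2-fold. Large minus small subunit turned to -0.023 at 100 FPKM or more and -0.018 with quantile normalization, and paralogs minus canonical to -0.024 without a filter.

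In RCC2 KO against CD24 KO, the counts (5 and 4) became 16 and 11 at a log2 minimum of 0.32, 2 and 1 at 2-fold and at 100 FPKM or more, 3 and 9 with quantile normalization and scaling to non-members, 3 and 10 at a sum of 1000000, 1 and 0 with under 5% of windows repeated, and 3 and 2 without shared loci. Of all genes, 27.5% were higher and 26.3% lower at a log2 minimum of 0.32, and 4.02% and 4.30% at 2-fold. They were 12.9% and 13.2% with quantile normalization, 7.71% and 22.2% scaled to non-members, and 9.11% and 24.2% at a sum of 1000000. The member median (0.077) turned to -0.15 with quantile normalization and -0.12 and -0.14 with the scalings. Large minus small subunit turned to 0.030 at 100 FPKM or more and 0.094 without shared loci. The share of the summed FPKM over protein-coding symbols was 9.50% in Scr, 10.5% in CD24 KO and 9.66% in RCC2 KO.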

Other observations

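The table lists 31 pseudogenes named after ribosomal protein genes. In Scr, 11 had at least 1 FPKM and 9 were listed at 0, and 12 and 11 had at least 1 FPKM in CD24 KO and RCC2 KO. Their sum was 445, 404 and 505 FPKM in Scr, CD24 KO and RCC2 KO, of which RPSAP58 held most, and 84.8, 104 and 78.1 FPKM without it. RPL31P11 was next with 40.3 FPKM in Scr, 62.1 in CD24 KO and 32.4 in RCC2 KO, highest in the CD24 KO column, while RPL31 itself had 191, 218 and 229. RPL13P5 had 4.24, 9.36 and 7.58 FPKM and RPL13AP20 had 9.84, 6.67 and 9.05. RPS18P9 had 5.27, 4.86 and 5.43 FPKM although RPS18 was listed at 0 in all columns. These genes were chosen after their values had been seen.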
